A study of Mus musculus with 12 samples.

Results

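The La-related RNA-binding proteins and the 4E-BP arm of the mTOR pathway were followed through neuronal differentiation of P19 cells as 10 genes. These were Larp1, Larp1b, Larp4, Larp4b, Larp7, Ssb, Eif4ebp1, Eif4ebp2, Mtor and Pabpc4. A read was taken when it passed the tail caller's quality tag, was classed as mRNA and carried one of these gene names, which gave 5224 of the 4274320 nuclear reads kept and 10 of the 14042 genes with a read. Each kept read was 1 native RNA molecule with a transcript and a poly(A) tail length.

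P19 is a mouse embryonal carcinoma line that resembles pluripotent cells and forms neurons under retinoic acid, and all libraries were of genotype WT. Undifferentiated cells (D0) stayed in serum medium, whereas cells collected at D2, D4 and D6 were on poly-L-lysine in NDiff 227 medium with 500 nM retinoic acid, so that D0 differed from the later days in medium, coating and agent together. Each of the 4 days had 3 biological replicates of bead-selected poly(A) RNA, 12 libraries in all, read on R9 MinION flow cells. Each sequencing run held 1 day only, and day and run cannot be told apart.

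mTOR is the kinase of mTORC1, which links nutrients and growth factors to protein synthesis. It phosphorylates the 4E-BPs, which in their unphosphorylated form hold the cap-binding protein eIF4E and block cap-dependent initiation. It also phosphorylates LARP1, which binds the cap and the first bases of mRNAs with a terminal oligopyrimidine (TOP) tract, the class that includes the ribosomal protein mRNAs. The other members share the La module or bind tails. La (Ssb) holds the 3′ ends of new polymerase III transcripts, LARP7 keeps the 7SK RNA that restrains the elongation kinase P-TEFb, LARP4 and LARP4B bind mRNAs together with poly(A)-binding protein, and PABPC4 is a cytoplasmic poly(A)-binding protein. These are facts about the proteins and were not measured here, where only RNA was read.

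D2 replicate 1 was the shallowest library with 120326 kept reads and D0 replicate 2 the deepest with 613756, and the members held 150 to 989 reads per library, or 0.0729% to 0.173% of the kept reads. A count of 0 allowed a share of up to 0.000489% in the deepest library and 0.00249% in the shallowest (3 reads, counting error only). The median tail over all reads of a library lay between 95.2 and 105.5 nt. The labelled course was visible in the cell type markers, of which the pluripotency genes summed to 2119 to 2438 CPM in the D0 libraries (reads per 1000000 kept reads, scaled between libraries) and 181 to 229 in the D6 libraries, with Dppa5a and Zfp42 at 0 throughout. The neuron markers went from 455 to 525 CPM at D0 through 117.6 to 217 at D2 to 2233 to 2386 at D6, and those of neural progenitors from 565 to 611 at D0 to 2488 to 2836 at D6. All 6 progenitor markers were called higher at D6 than at D0, but the sum did not follow each gene. The means of Nes, Pax6 and Sox1 were highest at D2 (100.4, 119.4 and 83.3 CPM) and lower at D6 (60.6, 83.0 and 29.4). Glial markers reached at most 16.1 CPM, endoderm markers 7.84 and mesoderm markers 9.48 in any library. These marker levels moved with the days, and in bulk RNA fewer cells of a type and less RNA per cell cannot be told apart.

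Abundance was compared with limma-voom over the 9309 genes with at least 30 reads, with adjusted p-values called at 0.05. Of the 10 members 9 were tested, and Larp1b was not, having 24 reads. No member was called higher at any day, against 4.48%, 12.6% and 19.4% of all genes at D2, D4 and D6. At D2 2 of 9 were called lower than at D0 (Eif4ebp1 and Larp7), where 6.32% of all genes were. At D4 6 of 9 were called lower against 12.7% of all genes, and at D6 5 of 9 against 18.2%. Eif4ebp1, Larp7, Pabpc4, Larp1 and Mtor were the 5 at D6, and Eif4ebp2 joined them at D4 only. The median log2 fold change of the 9 members was -0.63, -0.76 and -0.91 at the 3 days, while that of all genes tested was -0.05, -0.00 and 0.02. The comparisons share the D0 libraries and are not independent of each other. Of the members' transcripts 18 were tested in a fit over 12356 transcripts, and 5, 7 and 8 of them were called lower at D2, D4 and D6 against 6.38%, 9.6% and 15.8% of all transcripts. None was called higher, against 2.45%, 10.3% and 13.5%.

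**Figure D1:**
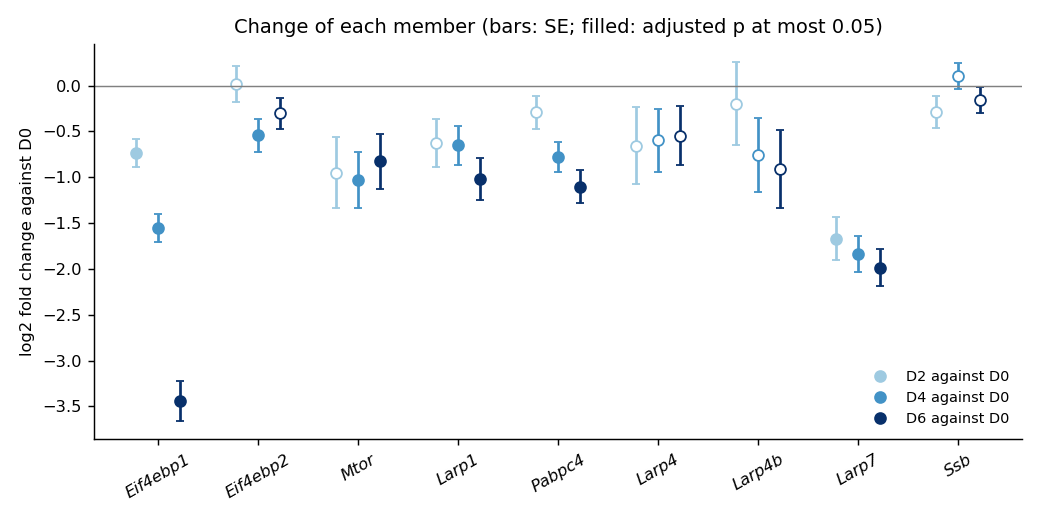
Log2 fold change of each tested member against D0 at D2, D4 and D6, with error bars of 1 SE from limma-voom over 12 libraries and filled points for adjusted p-values of at most 0.05. Eif4ebp1 goes from -0.74 at D2 to -3.44 at D6, Larp7 is already at -1.67 at D2, and Ssb stays between -0.29 and 0.10.

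Eif4ebp1, which encodes 4E-BP1 (chr8:27260329-27276674, plus strand, mm10, 3 exons), had the largest fall of the members. Its level was 492.9, 566.9 and 533.2 CPM in the D0 libraries, 352.8, 280.9 and 339.9 at D2, 224.4, 192.2 and 146.1 at D4, and 74.2, 44.0 and 37.9 at D6. Every library of a day lay below every library of the day before, so the 4 days did not overlap. The log2 fold change was -0.74 ± 0.15 at D2 (SE, adjusted p = 0.000323, limma-voom), -1.55 ± 0.15 at D4 (adjusted p = 3.19e-13) and -3.44 ± 0.22 at D6 (adjusted p = 1.22e-20), 10.9 times lower than at D0. Both later steps were also called, with -0.82 ± 0.18 from D2 to D4 (adjusted p = 0.00181), where 1.02% of all genes were called lower, and -1.89 ± 0.24 from D4 to D6 (adjusted p = 2.02e-08), where 3.92% were. It was the only member called lower in either step, and none was called higher, against 2.01% and 4.44% of all genes. Of all genes tested, 0.967% had a more negative log2 fold change at D6.

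**Figure D2:**
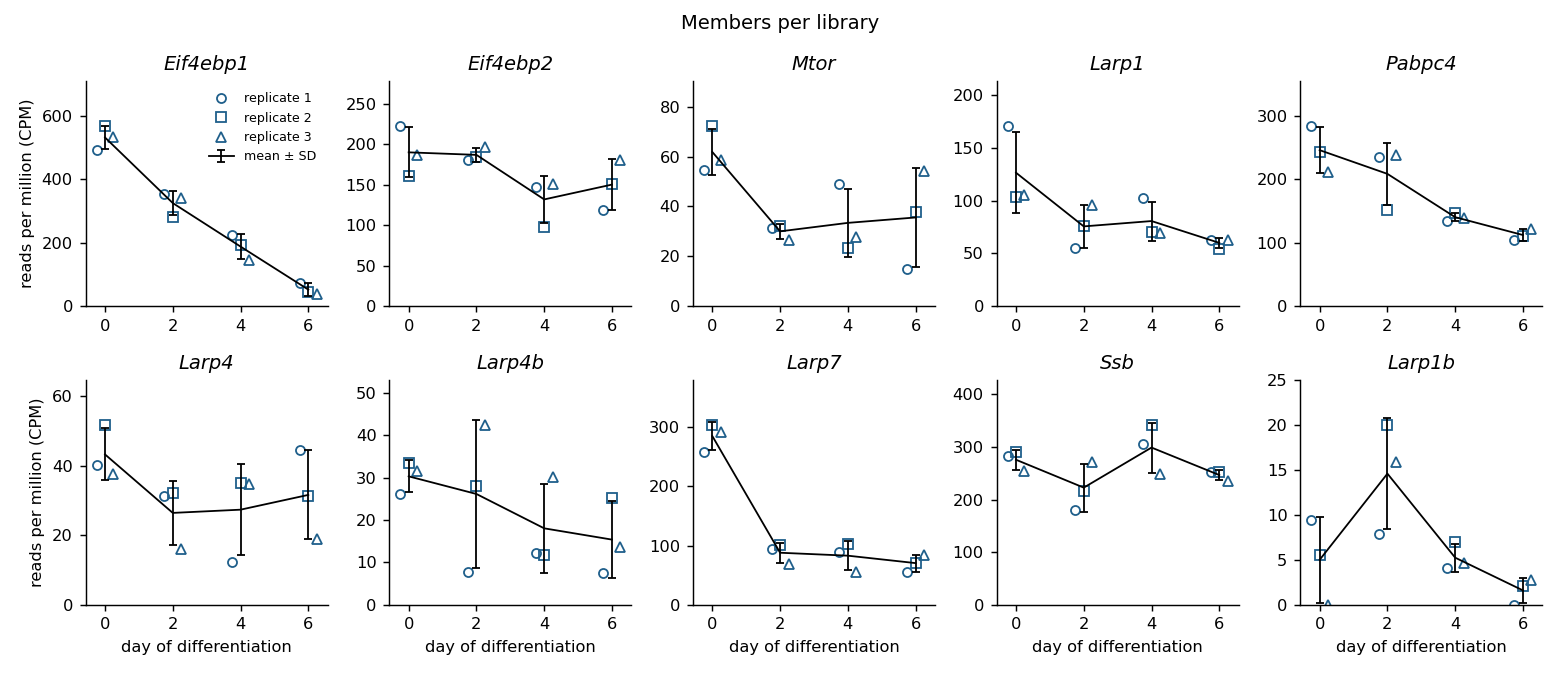
CPM of each member in every library (points, 1 shape per replicate number) against the day of differentiation, with the mean and SD of 3 libraries as line and bars. The Eif4ebp1 libraries step down at each day, the D0 libraries of Larp7 stand between 258.3 and 303.8 CPM above 9 later libraries of at most 103.1, and Larp1b stays at or under 20.1 CPM.

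Eif4ebp2, which encodes the related 4E-BP2 (chr10:61428491-61452661, minus strand, 3 exons), changed far less. It had 222.8, 161.2 and 186.8 CPM at D0, 180.3, 184.6 and 196.5 at D2, 146.9, 98.4 and 150.7 at D4, and 118.8, 151.0 and 181.4 at D6. The D4 libraries were all below the D0 libraries, and the D6 libraries overlapped them. The fit gave -0.54 ± 0.18 at D4 (adjusted p = 0.0180), a call that was lost without D0 replicate 1 or D4 replicate 2, with libraries scaled to their totals, under limma's trend method in place of voom with a pseudocount of 0.5 and when thinned to the smallest library (-0.086, adjusted p = 0.888), and -0.30 ± 0.17 at D6 (adjusted p = 0.163). Eif4ebp3, the third gene of the family, had 8 reads in all and was not tested.

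Between D4 and D6 the order of the paired 4E-BP genes in reads changed. The log2 ratio of Eif4ebp1 to Eif4ebp2 reads within a library was 1.14, 1.81 and 1.51 at D0, a mean of 1.49 ± 0.33 (SD, n = 3), then 0.78 ± 0.18 at D2 and 0.51 ± 0.51 at D4, and -0.66, -1.75 and -2.22 at D6, a mean of -1.55 ± 0.80. All D0 libraries held more Eif4ebp1 reads and all D6 libraries more Eif4ebp2 reads. Over the pooled reads of a day the ratio went from 2.84 through 1.69 and 1.40 to 0.322. The difference in the log2 ratio of -3.03 between D6 and D0 had an exact permutation p = 0.1 (two-sided), the smallest that 3 libraries against 3 can give. Because the ratio is taken inside a library, it does not depend on how libraries were scaled to each other.

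**Figure D3:**
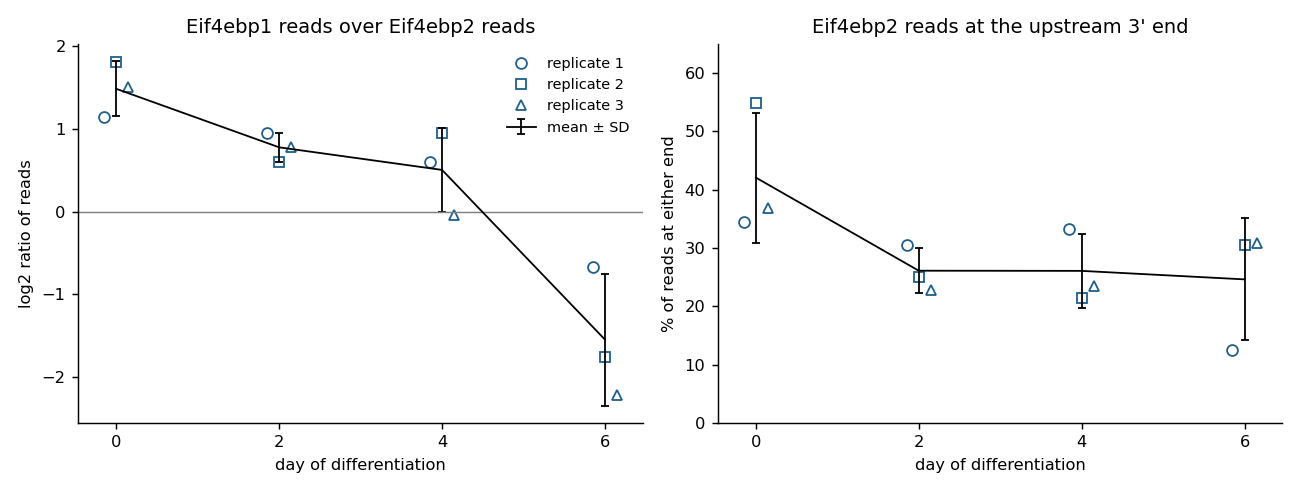
The 4E-BP genes by library and day, as the log2 ratio of Eif4ebp1 to Eif4ebp2 reads and as the share (%) of Eif4ebp2 reads at its upstream main end, with the mean and SD of 3 libraries. The ratio crosses 0 between D4, where 1 library lies at -0.045, and D6, where the libraries lie from -2.22 to -0.66.

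Reads of both 4E-BP genes ended at 2 main places, all inside the 3′ UTR in exon 3. The sequences that precede the ends are shown because they mark where the measured molecules ended, and because the annotated Eif4ebp1 transcript runs on past both of its ends. Each is the last 30 bases of the transcript up to the most frequent read end, 5′ to 3′ on mm10, with the polyadenylation hexamer AATAAA or ATTAAA in capitals where it occurs.
Eif4ebp1 main end, chr8:27275486-27275515, plus strand: tgacaggaAATAAAagccacatttacccta
Eif4ebp2 downstream end, chr10:61428491-61428520, minus strand: ttacagttaAATAAAgaccttgaatactga
Eif4ebp2 upstream end, chr10:61431790-61431819, minus strand: ttttaATTAAActccaaatttcatttccta

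Of the Eif4ebp1 reads, 80.4% ended at base 838 of the 1997-base annotated transcript and 14.4% at base 884, where the 30-base window held neither hexamer. Of the Eif4ebp2 reads, 65.8% (454) ended at the annotated end, base 5784, and 31.2% (215) at base 2485, so that the shorter form lacked most of the annotated 3′ UTR. The upstream end took 34.4%, 54.9% and 36.9% of the Eif4ebp2 reads that used either end at D0, and 12.5%, 30.6% and 30.8% at D6. The D6 libraries were all below the D0 libraries, by 17.5 percentage points on average (42.1% ± 11.2 against 24.6% ± 10.5, SD, n = 3), with an exact permutation p = 0.1, the smallest possible, and 0.25 after adjustment over the 5 pairs of ends compared among the members. This comparison was chosen after the ends had been seen. At D2 the share was 26.1% ± 3.91 and at D4 26.1% ± 6.37. In CPM the upstream form was at 74.0 ± 9.15 at D0 and 38.4 ± 20.8 at D6, and the downstream form at 106.5 ± 35.9 and 110.2 ± 10.1. The share of Eif4ebp1 reads at its upstream end was 85.7% ± 1.92 at D0 and 93.0% ± 6.08 at D6 (exact permutation p = 0.1, adjusted 0.25).

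Mtor itself (chr4:148448611-148557683, plus strand) was read 183 times. It had 54.5, 72.2 and 58.8 CPM at D0, 31.4, 32.1 and 26.6 at D2, 49.0, 23.4 and 27.8 at D4, and 14.8, 37.8 and 54.1 at D6. No later library reached the lowest D0 library, and the D6 libraries spread the most, from 14.8 to 54.1 CPM. The fit gave -0.95 at D2 (adjusted p = 0.110), -1.03 ± 0.30 at D4 (adjusted p = 0.00814) and -0.83 ± 0.30 at D6 (adjusted p = 0.0256, 1.77 times lower). The D6 call was lost without D0 replicate 2 or D6 replicate 1 (-0.48 without the latter), with libraries scaled to their totals, under limma trend with a pseudocount of 0.5 and with all libraries thinned to the smallest. It was also lost with a replicate block. The D4 call was lost without D4 replicate 2 or D4 replicate 3, under limma trend with a pseudocount of 0.5 or 2, and when thinned. Mtor-202, the full-length transcript of 58 exons, had 166 of the reads.

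LARP1 is the member that binds TOP mRNAs directly. Larp1 (chr11:58009064-58062034, plus strand, 19 exons) had 170.6, 103.7 and 105.0 CPM at D0, 54.9, 76.3 and 95.6 at D2, 102.0, 70.3 and 69.6 at D4, and 63.1, 54.5 and 62.3 at D6. The later libraries all lay below the D0 libraries, narrowly so for D4 replicate 1, and D0 replicate 1 stood above the other D0 libraries. It was called lower at D4 (-0.65 ± 0.21, adjusted p = 0.0176) and at D6 (-1.01 ± 0.23, adjusted p = 0.000272, 2.02 times lower) and not at D2 (-0.63, adjusted p = 0.125). The D4 call was lost without D0 replicate 1, D4 replicate 2 or D4 replicate 3, with libraries scaled to their totals, under limma trend with a pseudocount of 0.5 or 2, and when thinned. The D6 call was lost when thinned (adjusted p = 0.0643, limma-voom). The aligner gave no Larp1 read a mapping quality of 10 or more. The annotation holds near-identical forms, Larp1-203 and Larp1-201, which end 3 bases apart. The gene total does not depend on the choice between these forms, and the split between them was not read. Whether the reads also aligned elsewhere was not tested. Larp1 dropped out of the alternative that required a mapping quality of at least 10, so its calls were not tested there.

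Larp1b, a paralog of Larp1 (chr3:40949828-41040234, plus strand), was close to the floor. Its 24 reads fell as 4, 3 and 0 in the D0 libraries, 1, 5 and 3 at D2, 1, 3 and 2 at D4, and 0, 1 and 1 at D6. The libraries of different days overlapped in reads. The ratio of its D6 to its D0 level was 0.368 with an exact 95% counting interval of 0.0373 to 1.93, so no change from D0 to D6 was detectable at this depth. Without the filter on low counts it was called higher at D2 (2.08 ± 0.69 on the log2 scale, adjusted p = 0.0384), from 9 reads.

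Pabpc4, the poly(A)-binding member (chr4:123262351-123298925, plus strand), fell at D4 and D6. It had 284.4, 242.7 and 212.0 CPM at D0, 235.2, 152.5 and 239.0 at D2, 134.6, 147.7 and 139.1 at D4, and 103.9, 111.2 and 121.8 at D6. The D4 libraries lay below all D0 libraries and the D6 libraries below all D4 libraries, while D2 overlapped D0. The log2 fold change was -0.29 at D2 (adjusted p = 0.336), -0.78 ± 0.17 at D4 (adjusted p = 0.000190) and -1.10 ± 0.18 at D6 (adjusted p = 5.18e-07, 2.15 times lower), and the step from D4 to D6 was not called. At the transcript level Pabpc4-202 changed by -0.99 ± 0.24 (adjusted p = 0.00110) and Pabpc4-204 by -1.98 ± 0.43 (adjusted p = 0.000360) at D6 in the same kind of fit over 12356 transcripts. Reads are shared among these forms, since 84.0% and 60.8% of theirs had a mapping quality of at least 10, and their difference was not tested. Pabpc4-202 and Pabpc4-204 both ended at the same base, chr4:123298822.

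Larp4 and Larp4b, which act beside poly(A)-binding protein, gave no call at any day. Larp4 (chr15:99970065-100016358, plus strand) had 145 reads and levels from 37.8 to 51.9 CPM at D0 and from 18.9 to 44.5 at D6, and its log2 fold change at D6 was -0.55 ± 0.32 (adjusted p = 0.179). Larp4b (chr13:9093881-9174451, plus strand) had 100 reads, from 26.1 to 33.3 CPM at D0 and from 7.4 to 25.2 at D6, and -0.91 ± 0.43 (adjusted p = 0.0869). All D6 libraries of Larp4b lay below all D0 libraries, whereas those of Larp4 overlapped. At D2 and D4 the order was the other way. The Larp4 libraries, of at most 32.1 and 35.2 CPM, all lay below its D0 libraries, and those of Larp4b overlapped. These p-values do not show that the levels were the same at D0 and D6.

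Larp7 (chr3:127536714-127553349, minus strand) dropped before D2 and then stayed low. It had 258.3, 303.8 and 291.8 CPM at D0, 94.1, 100.3 and 69.0 at D2, 89.8, 103.1 and 55.7 at D4, and 55.7, 71.3 and 83.9 at D6. The D0 libraries stood apart from all 9 later ones, which overlapped each other. The log2 fold change was -1.67 ± 0.24 at D2 (adjusted p = 1.61e-07), -1.83 ± 0.19 at D4 (adjusted p = 1.12e-11) and -1.99 ± 0.20 at D6 (adjusted p = 1.71e-12, 3.97 times lower), and neither later step was called. Of all genes tested, 3.75% had a more negative value at D6.

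Part of that drop lay in molecules that were not the coding Larp7 mRNA. Of the 632 Larp7 reads, 459 were assigned to the coding Larp7-201, and 173 to a pair of transcripts annotated as retained intron, 102 to Larp7-204 and 71 to Larp7-202. All 173 came from D0, as 46, 60 and 67 reads or 42.2%, 36.6% and 48.2% of the Larp7 reads of its libraries, and none of the 9 later libraries held 1. Together they were at 120.3 ± 17.7 CPM at D0 (SD, n = 3), at least 7.01-fold higher than at D2, 13.8-fold than at D4 and 14.1-fold than at D6, taking 3 reads per library as the floor. The other Larp7 reads were at 164 ± 24.5 CPM at D0 and 87.8 ± 16.6, 82.8 ± 24.5 and 70.3 ± 14.2 at D2, D4 and D6. With the retained-intron reads left out, Larp7 was still called lower at each day, by smaller values of -0.88 ± 0.25 (adjusted p = 0.0107), -1.05 ± 0.21 (adjusted p = 5.53e-05) and -1.20 ± 0.21 (adjusted p = 5.23e-06). The share of Larp7 reads on Larp7-201 was 57.7% ± 5.81 at D0 and 100% in each D6 library (exact permutation p = 0.1, the smallest possible, and 0.35 adjusted over the 7 members compared).

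These D0 reads covered short, sharply bounded pieces of the gene. Larp7-204 reads had a median aligned length of 188 bases, and all of them began within 25 bases of the exon edge at chr3:127546818, where 98.6% of the Larp7-202 reads began too. The Larp7-204 reads stopped at chr3:127546632 in 94.1% of cases, 161 bases short of the annotated end of that transcript, and 71.8% of the Larp7-202 reads stopped within 25 bases of transcript base 1280. That base is the first of exon 6 (chr3:127544278), 1 base past the exon edge at chr3:127545826. By contrast 98.5% of the Larp7-201 reads reached the annotated end of the mRNA, behind an AATAAA. The 30 bases before the Larp7-204 stop held neither hexamer.
Larp7-201 end, chr3:127536714-127536743, minus strand: atttcataAATAAAtgtgttttgaacataa
Larp7-204 stop, chr3:127546632-127546661, minus strand: ccattgaggtacgtacttctgtgggaccct

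The called tails of the 3 forms differed as well. The median was 95.9 nt for Larp7-201 over all days, 129 nt for Larp7-204 and 291 nt for Larp7-202, whose middle 50% ran from 258 to 324 nt. The median mapping quality was 60 for each form, so the aligner did not find them ambiguous. The table gives no strand for a read, and a Larp7 RNA and an RNA from the other strand of this place cannot be told apart.

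**Figure D4:**
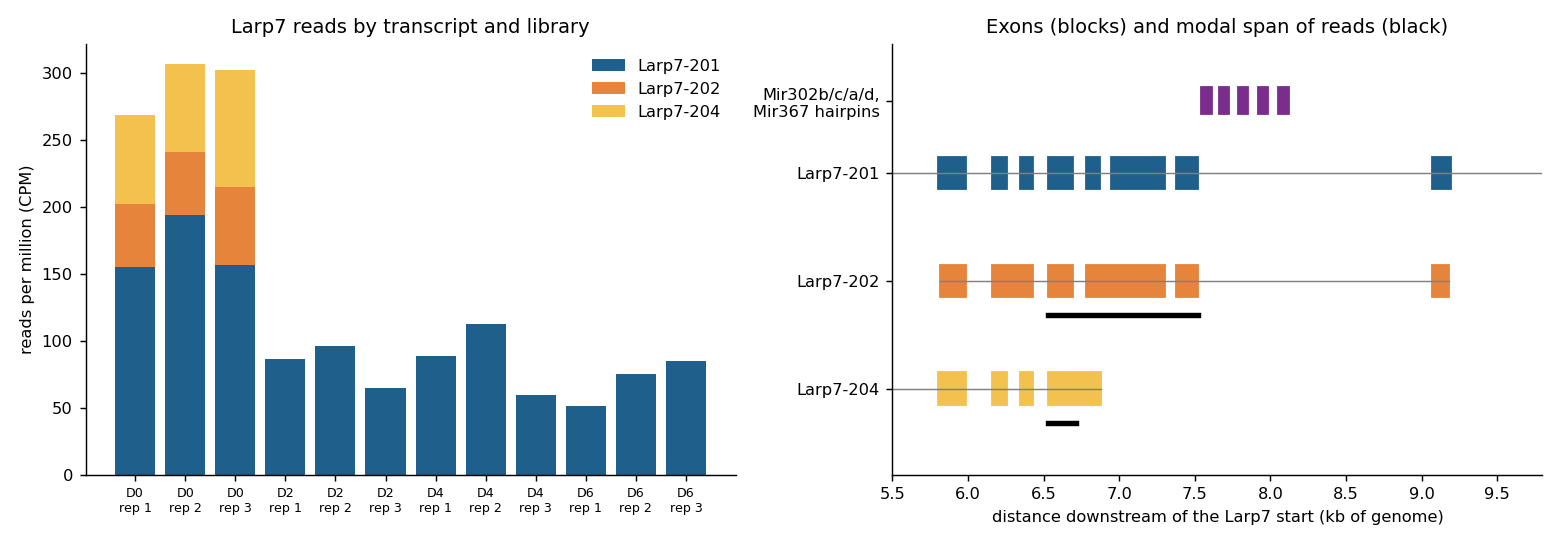
Larp7 reads in each of the 12 libraries as stacked CPM of its 3 transcripts (scaled within the transcript table), beside a map of exons, the most frequent span of the retained-intron reads (black) and the 5 miRNA hairpins, in kb downstream of the Larp7 start. Larp7-204 and Larp7-202 are present at D0 only, and the hairpins lie 18 bases past the exon edge at which the Larp7-202 span is drawn to stop and 824 bases past the Larp7-204 span.

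The other strand does hold genes there. The 5 hairpins of the cluster of miR-302 and miR-367, a miRNA group known for its abundance in pluripotent cells, are annotated on the plus strand between 127545228 and 127545807 of chromosome 3, inside the 1547-base Larp7 intron between exons 8 and 9 of Larp7-201 and 18 bases from exon 8. The mature miRNAs were not measured, and their sequences are shown to identify the cluster, which lay 18 bases past the exon edge next to the Larp7-202 read stop and 824 bases past the Larp7-204 read stop (RefSeq, GRCm38.p6, seed bases in capitals).
mmu-miR-302b-3p: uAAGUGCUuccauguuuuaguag
mmu-miR-302d-3p: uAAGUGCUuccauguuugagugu
mmu-miR-302c-3p: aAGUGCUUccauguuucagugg
mmu-miR-367-3p: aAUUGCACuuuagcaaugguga

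The first pair share the seed AAGUGCU. The pluripotency markers were also lower after D0, at 2119 to 2438 summed CPM in the D0 libraries and 249 or less in every later one. Pou5f1 made up 1706 of their mean of 2250 CPM at D0, while Sox2 was at 263 at D0 and 199 at D6. Being lower at D6 than at D0 was shared by 1690 of the 9309 genes tested. Whether the retained-intron reads belong to Larp7 or to the strand of the cluster was not tested.

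Ssb, the gene of La itself (chr2:69861562-69871846, plus strand), had the smallest log2 fold change of the 9 tested members at D6. It had 282.0, 290.8 and 254.0 CPM at D0, 180.3, 216.7 and 270.8 at D2, 306.0, 342.2 and 248.1 at D4, and 252.4, 251.7 and 235.5 at D6. No step or day was called. The D0 libraries overlapped those of D2 and D4 and lay just above those of D6. The log2 fold changes were -0.29, 0.10 ± 0.14 and -0.16 ± 0.14, with an adjusted p = 0.411 at D6. With libraries scaled to their totals the D6 value was 0.080, so its sign was not settled. The main transcript Ssb-201 took 56.7% ± 3.97 of the Ssb reads at D0 and 65.7% ± 1.32 at D6, with no overlap of the libraries (exact permutation p = 0.1, adjusted 0.35). At D2 its share was 69.6%, 51.9% and 82.4%, on both sides of the D0 libraries. Ssb-206 was called lower at D2 (-1.38 ± 0.39, adjusted p = 0.0167, limma-voom), from 5, 21 and 2 reads. It was not called at D6 (-0.49 ± 0.25, adjusted p = 0.141). Most Ssb-201 reads, 85.1%, ended at base 1725 of 2001, and that end carried neither hexamer.
Ssb main end, chr2:69871481-69871510, plus strand: gacttgtaaaatatatactgtataaaaata

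Among the 9 leading transcripts of the tested members, 8 had AATAAA in the last 30 bases before the main read end, Ssb being the exception. The share over the 9201 leading transcripts of all genes with such a window was 65.9% with AATAAA and 81.0% with either hexamer. The letters were searched on the transcript's own strand only, and a match is not a mapped signal.

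Tails were compared for the 8 members that reached a mean of 10 reads a library with no library empty, in limma fits over 4841 genes. At D6 none of the 8 was called in median length, where 4.77% of all genes were, in the share of tails from 30 to 90 nt, where 3.28% were, or in the share under 30 nt, where 1.3% were. The same 3 measures were called for 1.82%, 2.19% and 0.0% of all genes at D2, with no member among them, and for 2.77%, 2.95% and 0.888% at D4, with 1 member. At an unadjusted p under 0.05 the member counts at D6 were 2 (Larp1 and Larp7), 1 (Eif4ebp1) and 0, where 762, 582 and 449 of the 4841 genes reached that level. Pooled over all libraries the members' median tails lay between 94.3 nt for Larp1b and 139 nt for Larp4.

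That member was Eif4ebp1, by its share of tails from 30 to 90 nt. The share was 26.4%, 23.5% and 27.6% at D0, 42.2%, 41.4% and 32.8% at D2, 41.8%, 35.4% and 44.4% at D4, and 45.0%, 38.1% and 35.7% at D6. The D0 libraries were below all 9 later ones. The rise was 14.3 ± 3.75 percentage points at D4 (SE, adjusted p = 0.00976, limma), where 2.69% of all genes were called higher. It was 12.9 ± 3.92 at D2 (adjusted p = 0.0590) and 14.3 ± 6.60 at D6 (adjusted p = 0.341), where only 55 Eif4ebp1 reads were left. Alternatives for the tail measures were compared at D6 only, so the D4 call was not tested against them. The median tail at D4 was 19.1 nt shorter (difference -19.1 ± 5.61 nt, adjusted p = 0.0562). Over all 4841 genes compared, the median difference at D4 was -0.65 nt in median tail and 0.27 points in the share from 30 to 90 nt. Eif4ebp2, with 33.3% of its pooled reads in this class at D0 and 29.2% at D6, moved by -4.09 ± 4.71 points (adjusted p = 0.798), and the difference between the 4E-BP genes was not tested.

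**Figure D5:**
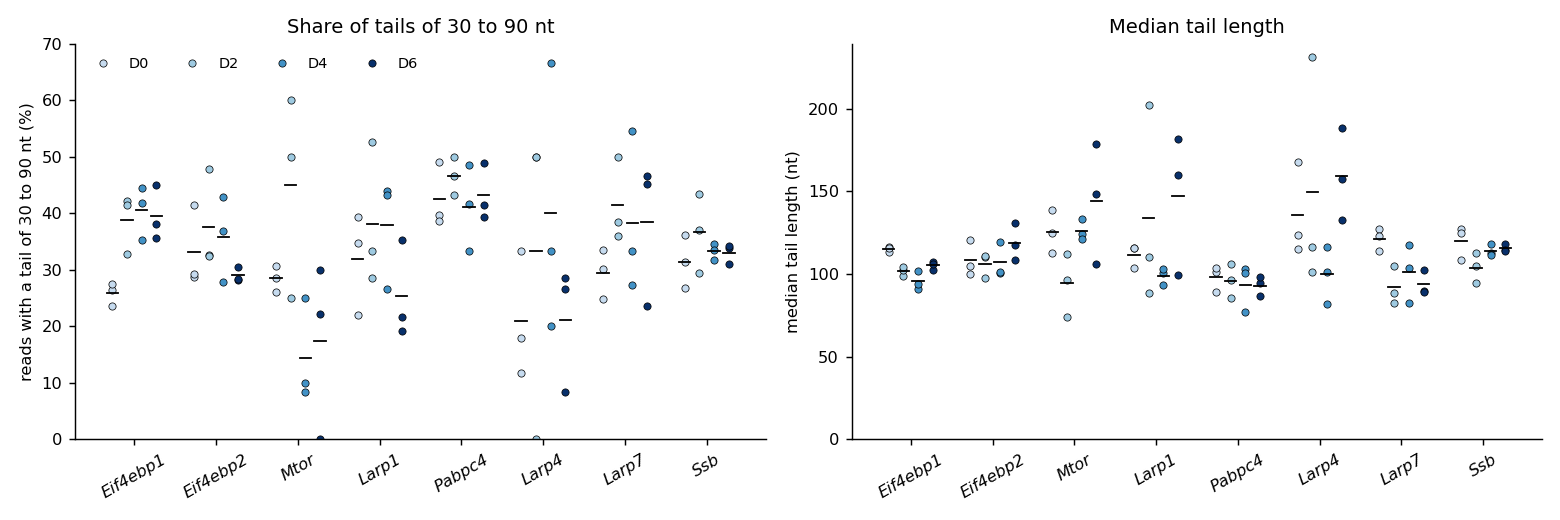
Poly(A) tails of the members by library and day, as the share (%) of reads with a tail of 30 to 90 nt and the median length (nt), with points for libraries and bars for the mean of 3. The Eif4ebp1 share lies between 23.5% and 27.6% at D0 and between 32.8% and 45.0% in the later libraries.

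Larp1 tails were longer at D6 in part of the libraries. The median was 115.8, 103.5 and 115.7 nt at D0 and 99.6, 159.7 and 181.4 nt at D6, so that D6 replicate 1 lay below the D0 libraries and the other 2 above. The difference was 39.9 ± 13.4 nt (SE) with an adjusted p of 0.0837 from limma, and it was called without D6 replicate 1 or when genes averaging under 20 reads were left out. Larp7 moved by -25.7 ± 9.25 nt at D6 (adjusted p = 0.116) with all its reads and by 2.30 ± 10.0 nt (adjusted p = 0.957) without the retained-intron reads. Pabpc4 had 0.568% of reads under 30 nt at D0 and 3.97% at D6 (adjusted p = 0.625).

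The other genes of the pathway were counted from lists chosen with earlier results of these data known, against the same 18.2% lower and 19.4% higher over all genes at D6. None of the 6 tested genes for other subunits of the mTOR complexes was called at any day, their median change being 0.07 (log2) at D6, and Rptor, the subunit that recruits substrates to mTORC1, was at -0.06 ± 0.27. Of 20 activators and nutrient sensors 1 was higher and 4 lower at D6 (median -0.14). Rraga, a Rag GTPase that brings mTORC1 to the lysosome, rose by 0.80 ± 0.19, while Rhebl1, a relative of the activating GTPase Rheb, changed by -1.95 ± 0.46, Rragb by -1.33 ± 0.36 and Seh1l, also a nuclear pore subunit, by -1.05 ± 0.20. Lamtor4, the fourth, was not called when libraries were scaled to their totals.

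Of the 16 inhibitors of mTORC1 tested, 0 were higher and 2, 5 and 6 lower at D2, D4 and D6 (median -0.55 at D6). Ddit4, which encodes the stress-induced inhibitor REDD1, went from 522 ± 24.9 to 58.0 ± 13.4 CPM (-3.12 ± 0.20, adjusted p = 2.78e-20). Sesn2, a leucine sensor, changed by -2.28 ± 0.36, and Castor1, an arginine sensor, had 29 reads at D0 and 2 at D6, a ratio of 0.0889 with an exact 95% counting interval of 0.0103 to 0.351. With totals as the scale the list had 2 higher and 4 lower, Sesn1 and Sesn3 losing their calls. The genes of the TSC complex, the main brake on mTORC1, showed no such fall, with Tsc1 at 0.59 ± 0.47 and Tsc2 at -0.05 ± 0.26.

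Upstream of mTOR, 3 of 11 tested kinase-arm genes were higher and 1 lower at D6 (median 0.25). Akt1, a kinase that signals to mTORC1, rose by 2.46 ± 0.29, and Pik3ca, a catalytic subunit of phosphoinositide 3-kinase, by 1.03 ± 0.41. The call of Pik3ca was lost under upper-quartile scaling. At D2 and at D4 there was 1 call in each direction.

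Downstream, 4 of 15 cap-binding and S6 kinase genes were higher and 3 lower at D6 (median -0.06). Pdcd4, an inhibitor of the helicase eIF4A, rose by 1.88 ± 0.32, Rps6kb2, an S6 kinase, by 1.39 ± 0.45 and Eif4g2 by 0.61 ± 0.12, while Eif4b, a helicase cofactor, changed by -1.36 ± 0.16, Rps6 by -0.56 ± 0.07 and Eif4a1 by -0.40 ± 0.09. Eif4e, the cap-binding protein that 4E-BPs hold, was at 180 ± 29.2 CPM at D0 and 180 ± 25.7 at D6 (-0.03 ± 0.16, adjusted p = 0.904). Of the 80 ribosomal protein genes, the largest group of TOP mRNAs, 36, 34 and 74 were lower at D2, D4 and D6 and 0, 2 and 0 higher. Their median was -0.55 at D6, and with totals as the scale 61 were lower and 2 higher.

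Of the 6 tested poly(A)-binding proteins and partners other than Pabpc4, 2 were higher and 1 lower at D6 (median 0.38). Pabpc1, the main cytoplasmic poly(A)-binding protein, was 1088 ± 33.0 CPM at D0 and 518 ± 23.8 at D6, a change of -1.07 ± 0.11 beside -1.10 ± 0.18 for Pabpc4. Paip1, a stimulating partner, rose by 1.22 ± 0.22 and Paip2, an inhibiting one, by 0.51 ± 0.15. Of the 8 tested 7SK and La partners, only Ccnt1, the cyclin of P-TEFb, was called at D6 (0.84 ± 0.31, adjusted p = 0.0282), and Hexim1 and Cdk9, which meet LARP7 on the 7SK particle, were at -0.10 ± 0.30 and -0.49 ± 0.22. Hexim1 was the 1 gene of the list called lower at D4 (-1.39 ± 0.39, adjusted p = 0.00521, limma-voom), from 39.7 ± 8.97 CPM at D0 to 15.3 ± 4.51.

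The genes whose log2 CPM followed the members most closely were taken from 2796 genes by Pearson's r over the 12 libraries, as a description that includes the shared course of the days. For Eif4ebp1 they were Gm10275 (r = 0.986), Nup85 (0.983) and Ran (0.982). For Pabpc4 they were Gnl3 (0.938), Ctsl (0.930) and Cks2 (0.920). Larp1 was followed by Ahsa1 (0.904) and G3bp1 (0.888), and Ssb by Pmpcb (0.884), Stag2 (0.865) and Nabp2 (0.830). All of these points share library depth and day.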

How the data were processed

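Base calling by the authors used Guppy, alignment to mm10 transcripts Minimap2 2.20, tail calling Nanopolish and demultiplexing Deeplexicon. In the deposited per-read table mapping quality is a score, barcode confidence is a fraction and tail length is in nt, none of them normalized. A second deposited table with log2 fold changes and p-values from the authors' DESeq2 comparisons was not used. Of 6306434 lines, 69 were malformed, 289260 had no library and 1343574 did not pass the quality tag. Of the rest, 313187 mitochondrial and 38189 pseudogene reads were set aside, with repeats and spike-ins. Per-sample columns left unused numbered 0. The runs of D0 carry a D2 mark in their names and 2 of the 4 D6 runs name no day. Groups were taken from the sample labels, which name biological replicates.

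Counts per gene and library were tallied here, since no count table was used, and tested with limma-voom (limma 3.58.1, R 4.3.3) over all 12 libraries, without a block, scaled by trimmed means of M-values (30% and 5% trimmed), a pseudocount of 0.5 and at least 30 reads per gene. Tails were compared with limma on values per library weighted by reads. Adjusted p-values are Benjamini-Hochberg over all features tested, and permutation tests over libraries are exact and two-sided. Scripts were tested on simulated data. Coordinates are 1-based on mm10, and 97.9% of 34244 transcripts matched GENCODE vM21 by identifier, 33505 of 33512 with the same coordinates. Python 3.11.15, numpy 2.4.6, pandas 2.3.3, scipy 1.17.1 and matplotlib 3.10.9 were used.

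All 10 members were named, with the 3 higher and 3 lower genes of largest fold change at D6 among the calls of each list, and the 3 genes most like Larp1, Ssb, Eif4ebp1 and Pabpc4 with a mean of at least 20 reads. A few genes that this rule picked are not reported here. Rptor, Tsc1, Tsc2, Lamtor4, Sesn1, Sesn3, Eif4e, Eif4ebp3, Hexim1 and Cdk9 were named after their values were seen. Members, lists and tests were chosen with earlier results of these data known. Alternatives covered scaling, filters, model, pseudocount, mapping quality, repeated reads, depth, tail classes, replicates and a replicate block, and the retained-intron reads and non-coding transcripts were left out as alternatives chosen after seeing the data.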

Additional observations from a re-analysis of the deposited data

How the results depend on the processing

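Run, medium and day cannot be told apart, and D2 was shallowest. The calls of Eif4ebp1 and Larp7 held at each day, and that of Pabpc4 at D4 and D6, under all 27 alternatives. The count of members called lower at D4 fell from 6 to 3 (without Eif4ebp2, Larp1 and Mtor) under limma trend with a pseudocount of 0.5 and when thinned to the smallest library, which also took the D6 count from 5 to 3. Leaving out 1 replicate each gave 3 to 6 at D4 (3 without D4 replicate 2) and 4 to 5 at D6. Genes with a mean of at least 20 reads gave 1 tail-length call at D6 (Larp1), and leaving out replicates gave 0 to 1. The labels do not tie a replicate number to a shared culture. Deviations of same-numbered libraries correlated at -0.138 to 0.172 (18 pairs, 4 over 0.1), all 9 pairs among D2, D4 and D6 being positive (0.0302 to 0.170) and 5 of 9 with D0, and 9 of 12 libraries correlated best with their own number, a hint of pairing from the data and not the design. The replicate block gave 2, 6 and 4 calls at D2, D4 and D6, without Mtor at D6 (log2 fold change -0.81). Scaling to library totals moved the median of all genes at D6 from 0.02 to 0.26 and the calls from 1809 higher and 1690 lower to 2588 and 1162, with 4 members called at D4 and at D6. Thinning left 553 higher and 631 lower. Signs turned only for values without a call, and the cause was not tested. For abundance these were Larp4b at D2 (0.049, pseudocount 2), Eif4ebp2 at D2 (-0.050, mapping quality of at least 10), and Ssb at D4 (-0.085, thinned) and D6 (0.080 by totals, 0.10 by mapping quality). For median tails they were Pabpc4 (1.85 nt by mapping quality) and Larp7 (2.30 nt without retained introns). For the share of 30 to 90 nt they were Larp4 (0.205 with equal weights, 0.732 with the replicate block), Pabpc4 (-6.68 by mapping quality, -5.59 with 35 to 85 nt) and Larp7 (-3.50 without retained introns), and for shares of short tails Mtor (0.317 under 35 nt) and Ssb (0.0834 under 25 nt). Without 1 replicate at a time, D2 abundance ran from -0.11 to 0.16 for Eif4ebp2, -0.58 to 0.15 for Larp4b and -0.45 to 0.020 for Pabpc4, Ssb at D4 from -0.018 to 0.27, and the Mtor median tail from -6.44 to 29.3 nt. Shares of 30 to 90 nt ran from -6.28 to 0.262 for Eif4ebp2, -1.87 to 4.43 for Pabpc4, -0.659 to 4.31 for Ssb and -4.85 to 6.64 for Larp4, and shares under 30 nt from -1.12 to 1.38 for Larp1, -3.33 to 0.833 for Mtor, -1.81 to 0.205 for Ssb and -1.69 to 4.02 for Eif4ebp1.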
